A study of Mus musculus with 51 samples.

Results

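The loss of FoxA1 and FoxA2 from mouse hepatocytes was compared between animals that lacked FoxA3 and animals that kept it. The comparison used 15 hepatocyte RNA libraries of the 21 RNA libraries and 51 samples in the series, chosen by their genotype labels. FoxA triple null hepatocytes (4 libraries) came from FoxA1 L/L, FoxA2 L/L, FoxA3-/- mice injected as adults, at 8 weeks, with an adeno-associated virus of serotype 8 that expressed Cre recombinase from the thyroid-binding globulin (Tbg) promoter, which is active in hepatocytes. FoxA3 null controls (4 libraries) carried the same alleles and received a GFP virus, so both groups lacked FoxA3. FoxA1/A2 lox animals (3 libraries) had no deletion, and FoxA1/A2 Cre alfp animals (4 libraries) had the FoxA1/A2 deletion with FoxA3 present. By its name Cre alfp is driven by the albumin promoter with alpha-fetoprotein enhancers, which is active from fetal liver onward. FoxA3 status, the way and the time of deletion, and any difference in how the 2 sets of animals were handled change together between the arms and cannot be told apart.

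FoxA1, FoxA2 and FoxA3 are forkhead transcription factors that bind closely related DNA sequences through a shared winged-helix domain. They are known as pioneer factors, able to bind their sites in compacted chromatin and make them accessible to other regulators. In liver they are needed for the onset of hepatic development and bind near many genes for plasma proteins and metabolic enzymes. The question here was which genes responded to the loss of FoxA1 and FoxA2 by a different amount when FoxA3 was absent.

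Levels are the authors' RPKM, reads scaled by gene length and library depth, given as mean ± SD over libraries or library by library in replicate order. Differences are on the log2(RPKM + 1) scale with their standard error, and understate the change of genes with low levels. The difference without FoxA3 is triple null minus FoxA3 null, the difference with FoxA3 is Cre alfp minus lox, and the interaction is the former minus the latter. All 15 libraries entered 1 limma fit over the 11500 of 33773 genes that reached 1 RPKM in 3 or more libraries. A call needed an adjusted p under 0.05 and a difference of at least 1. Called genes made up 8.11% of those tested for the deletion without FoxA3 (933, of which 4.17% of all tested were higher and 3.95% lower), 2.38% with FoxA3 (274, 1.29% higher and 1.1% lower) and 6.82% for the interaction (784, 3.28% higher and 3.54% lower). The labels do not say that libraries of a group came from separate animals, so p-values measure only the spread between these libraries. In bulk RNA, fewer cells of a type and less RNA per cell cannot be told apart.

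Libraries of a group correlated at 0.941 to 0.98 across genes, and relative depth spanned 1.0 to 2.02, with absolute depth unknown. Foxa3 was listed at no more than 0.0114 RPKM in the FoxA3 null and triple null libraries, and lay between 19 and 34.5 RPKM in the others. Foxa2 had 2.67% of its control level left without FoxA3 and 8.78% with FoxA3. Foxa1 had 38.6% left in the triple null, with 3.39, 3.63, 3.04 and 3.06 RPKM, and 18.4% left in Cre alfp, with 1.31, 1.14, 1.34 and 1.16 RPKM. The Foxa1 residue was thus higher in every triple null library than in every Cre alfp library, although the interaction missed the threshold (0.63 ± 0.23, limma adjusted p = 0.085). Xist was at most 0.363 RPKM in all 15 libraries. The 12 hepatocyte markers summed to 44590.0 to 52464 RPKM in the triple null and 75109.6 to 94885 in the other libraries, without overlap. Without FoxA3 5 of them fell and 1 rose, and none was called with it (1 without Cre alfp replicate 3 or 4); their part in other values was not tested. All 13 lymphocyte markers stayed under 1 RPKM in each.

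Vitronectin (Vtn), an adhesive glycoprotein that the liver secretes into plasma, had the lowest interaction among the genes that fell without FoxA3 and stayed near their control level with it. Its promoter and 3 others of that kind are printed with that of Hsd3b5, a steroid dehydrogenase gene of male mouse liver that fell in both arms, to show the sequence next to genes with each kind of response. Each is the 250 bases before the RefSeq gene start in GRCm38.p6, 5′ to 3′ on the gene's strand, with matches to forms of the forkhead core sequence on either strand in capitals. The letters searched were TGTTTAC with its variant TGTTTGC, and likewise TATTTAC with its variant TATTTGC, and no start can match more than 1 of them. The windows are chr11:78498870-78499119 (plus strand) for Vtn, chr8:93131284-93131533 (minus) for Ces1c, chr9:46268358-46268607 (plus) for Apoa5, chr4:63154173-63154422 (minus) for Ambp and chr3:98645535-98645784 (minus) for Hsd3b5.
Vtn: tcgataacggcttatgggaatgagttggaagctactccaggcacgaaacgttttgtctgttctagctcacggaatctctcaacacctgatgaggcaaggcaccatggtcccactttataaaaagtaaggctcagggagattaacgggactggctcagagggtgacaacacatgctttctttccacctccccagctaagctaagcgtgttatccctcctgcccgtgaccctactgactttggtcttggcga
Ces1c: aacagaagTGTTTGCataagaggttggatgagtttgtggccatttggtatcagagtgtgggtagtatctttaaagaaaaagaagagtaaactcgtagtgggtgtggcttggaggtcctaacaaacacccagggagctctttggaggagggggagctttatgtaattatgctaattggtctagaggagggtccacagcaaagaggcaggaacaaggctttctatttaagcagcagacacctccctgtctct
Apoa5: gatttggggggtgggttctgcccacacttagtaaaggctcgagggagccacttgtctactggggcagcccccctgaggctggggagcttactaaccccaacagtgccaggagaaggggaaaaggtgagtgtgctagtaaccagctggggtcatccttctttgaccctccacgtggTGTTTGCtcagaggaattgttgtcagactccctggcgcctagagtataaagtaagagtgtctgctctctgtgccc
Ambp: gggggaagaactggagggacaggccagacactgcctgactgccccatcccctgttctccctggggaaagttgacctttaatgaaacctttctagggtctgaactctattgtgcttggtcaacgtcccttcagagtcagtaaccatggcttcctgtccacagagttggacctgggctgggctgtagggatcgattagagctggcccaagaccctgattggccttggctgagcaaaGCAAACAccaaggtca
Hsd3b5: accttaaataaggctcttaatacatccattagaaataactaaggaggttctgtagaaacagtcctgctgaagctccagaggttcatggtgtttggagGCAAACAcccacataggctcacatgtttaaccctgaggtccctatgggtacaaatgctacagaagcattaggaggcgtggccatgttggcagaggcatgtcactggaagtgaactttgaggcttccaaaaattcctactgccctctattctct

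A match stood in the windows of Ces1c, Apoa5, Ambp and Hsd3b5, and these letters were not in that of Vtn. In Ambp the match began at -16 and in Apoa5 at -75, counted from the gene start, while in Ces1c it began at -242 and in Hsd3b5 at -153. Over classes defined in the next paragraphs, 24 of the 112 buffered lower genes with an entry held a match (21.4%), as did 13 of 48 genes lower in both arms (27.1%). The share was 10.6% in buffered higher genes (9 of 85), 11.6% in genes higher in both arms (5 of 43) and 12.5% in genes lower with FoxA3 only (2 of 16). Among all tested genes with an entry it was 8.36% (630 of 7532), and over every promoter given it was 11.8% (3188 of 27025). These shares are a description of letters in a window and not of binding.

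Most of the genes with an interaction responded when FoxA3 was absent. Of the 784, 439 were called only without FoxA3 (201 higher, 238 lower), 60 only with FoxA3, and 254 in neither arm. All 254 had differences of opposite sign in the arms, which their choice all but fixed. With equal signs the interaction is smaller than the larger arm difference, so that arm would nearly always be called. A gene was called buffered when the deletion without FoxA3 and the interaction were called in the same direction and the 95% interval of the difference with FoxA3 lay inside -1 to 1. By that rule 296 genes were buffered, 165 lower and 131 higher. A further 143 were called only without FoxA3 but had an interval with FoxA3 that reached past 1. A change of that size with FoxA3 could thus not be set aside for them. The buffered genes numbered 70 with an interval inside -0.5 to 0.5, and 247 to 373 when 1 library was left out.

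The buffered lower genes had a median difference of -1.57 without FoxA3 and 0.05 with it, and the buffered higher genes 1.39 and 0.02; their choice fixed this order. The median over all tested genes was 0.05 without and 0.02 with FoxA3. In 241 of the 296 buffered genes all 4 triple null libraries lay apart from the other 11 (13.3% of all tested genes). The FoxA3 null libraries lay apart from the rest in 72 (4.68% of all tested genes). The choice of the genes used these same values, so nothing is read from either share. In 35 of the 72 the triple null libraries did not lie apart, while the FoxA3 null controls did. How much each of these groups gave to the interaction of the 35 was not tested. Of the 296, 283 were in the authors' deposited table of triple null against FoxA3 null. That table compares the same groups that chose the genes, so that all 283 had the same sign there, 281 of them with an adjusted p under 0.05, is no further support.

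**Figure D1:**
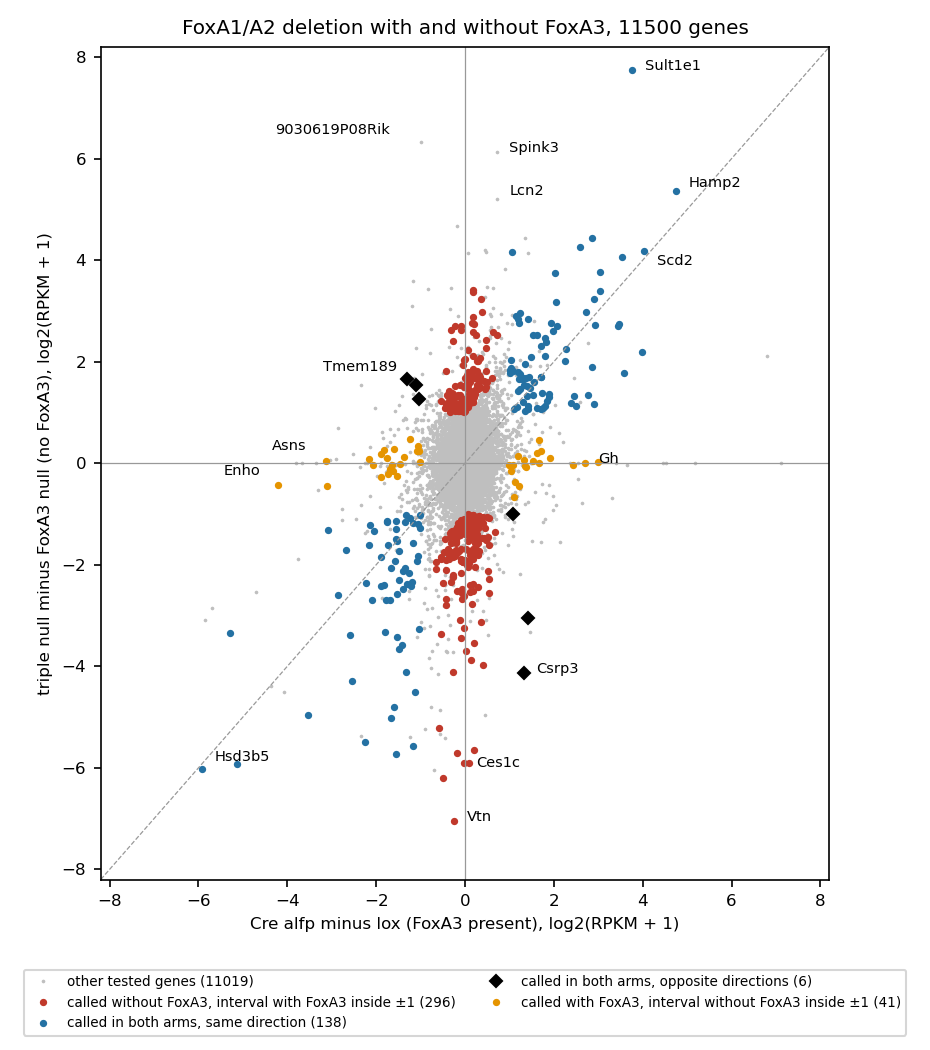
Difference after FoxA1/A2 deletion without FoxA3 (vertical axis) against that with FoxA3 (horizontal axis) for 11500 genes, both as log2(RPKM + 1), 1 point per gene, with the dashed line marking equal differences. Red points are the 296 buffered genes near the vertical axis, blue the 138 called in both arms in the same direction, black diamonds the 6 called in opposite directions, and orange the 41 called with FoxA3 only. Vtn lies at -7.05 on the vertical and -0.24 on the horizontal axis.

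Of the buffered genes that fell, 141 were eligible for naming by rank. These had no overlap between the groups and a mean of at least 5 RPKM in the higher group. Those of them with the lowest interactions, named next, encode secreted plasma proteins and liver enzymes. Whether such products were more frequent there than among other genes was not tested. Without FoxA3, Vtn stood at 1425, 1965, 2851 and 2526 RPKM in the controls and at 13.2, 13.2, 16.6 and 17.4 after the deletion, while lox held 3617, 3657 and 3779.7 and Cre alfp 3009, 3512, 3211 and 2805. The triple null libraries were far below all others, and lox and Cre alfp did not overlap although their difference of -0.24 had an interval of -0.65 to 0.18. Groups without overlap made up 27.9% of tested genes in the arm without FoxA3 and 19.9% in the arm with it. Vtn kept 0.688% of its level without FoxA3 and 85.1% with it (interaction -6.81 ± 0.26, limma adjusted p = 6.65e-10).

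Transthyretin (Ttr), the plasma carrier of thyroxine and, with retinol-binding protein, of retinol, is a classic gene of FoxA studies in liver. Its levels were 102, 70.9, 106 and 97 RPKM in the triple null, 3719 to 5799 in the FoxA3 null controls, 7079.6 to 8786 in Cre alfp and 6343 to 7000.0 in lox. The triple null libraries lay below all others, and Cre alfp lay above lox without overlap, by 0.20 with an interval of -0.14 to 0.55 (interaction -5.85 ± 0.22, limma adjusted p = 5.19e-10). Ces1c, a carboxylesterase that the mouse liver secretes into plasma, was at 17.8, 12, 22.6 and 16.2 RPKM in the triple null against 1037, 1076, 1062 and 1089 in its controls. Its lox libraries (959, 913 and 1099) and Cre alfp libraries (1058, 1000.4, 826 and 1019) overlapped, with a difference of -0.02 and an interval of -0.37 to 0.32. Only 1.61% of Ces1c was left without FoxA3, and 98.5% with it.

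Pemt, the enzyme that methylates phosphatidylethanolamine to phosphatidylcholine, had 6.99, 7.58, 5.77 and 10.3 RPKM in the triple null and 360.1, 456, 504 and 459 in its controls. With FoxA3 it was at 511, 606, 460.3 and 507 after the deletion and 579, 524 and 666 in lox, which overlapped (interaction -5.52 ± 0.23, limma adjusted p = 1.46e-09). Apoa5, an apolipoprotein that lowers plasma triglyceride, was at 18.9, 38.2, 42.2 and 37.9 RPKM in the triple null against 472 to 536 in its controls. Lox (343, 389 and 557) and Cre alfp (368, 544, 429 and 519.6) overlapped for Apoa5, whose interaction was -4.01 ± 0.33 (limma adjusted p = 2.66e-06). Ambp, the precursor of alpha-1-microglobulin and of bikunin, was at 78.1 to 156 RPKM in the triple null and at 1629.6 or more in every other library. Itih2, which encodes a heavy chain that is joined to bikunin in plasma, fell by 3.97 without FoxA3 and differed by 0.41 with it, with an interval of 0.16 to 0.66.

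Serpina10, the protein Z-dependent protease inhibitor of coagulation, was buffered by the rule but not flat with FoxA3 present. It was at 113, 130.5 and 114 RPKM in lox and 76.4, 84.8, 75.8 and 81.1 in Cre alfp, without overlap, a difference of -0.58 (limma adjusted p = 0.00925). Without FoxA3 it went from 103 to 125 RPKM in the controls to 1.69 to 2.59 in the triple null, a fall by 5.22. Cyp2c50, a cytochrome P450, and Ugt2b1, a glucuronidation enzyme, had interactions of -6.01 ± 0.55 and -5.69 ± 0.28; both belong to families of near-identical genes that can share reads, as do Ces1c and the Serpina genes.

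The buffered genes that rose included metabolic enzymes, carriers, calcium-binding proteins and a kinetochore gene. Nnmt, which methylates nicotinamide, was at 692, 643, 995 and 802 RPKM in the triple null and 84.3, 119, 145 and 129 in its controls, while lox had 237, 199 and 267 and Cre alfp 189, 245, 197 and 169.8. The triple null lay above all others and FoxA3 null below all others, so both groups of that arm contributed to the interaction of 2.94 ± 0.27 (limma adjusted p = 7.82e-06). Emp2, an epithelial membrane protein, had 17.8, 15.3, 14.4 and 17.8 RPKM in the triple null and 1.05 to 2.67 in the other 11 libraries. Its interaction of 2.71 ± 0.21 (limma adjusted p = 1.2e-06) came with a difference of 0.19 with FoxA3.

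Ucp2, a carrier of the inner mitochondrial membrane, was at 28.8, 46.9, 29.4 and 52.5 RPKM in the triple null and 2.73 to 9.48 elsewhere (interaction 2.72 ± 0.45). Rhbg, an ammonium transporter, was at 17.6, 18.2, 43.7 and 17.8 RPKM in the triple null and at most 5.3 elsewhere (2.80 ± 0.56). The interactions of Ucp2 and Rhbg were no longer called in a fit without the 3 libraries whose Dbp, a clock gene, was under 50 RPKM. The calcium-binding proteins Hpca (3.24 ± 0.28), known as a neuronal calcium sensor, and S100g (3.20 ± 0.41) were at most 0.503 RPKM in every library outside the triple null, where they reached 5.97 to 14.4 and 6.22 to 22.8, so both passed the filter on low values through that group alone. The tubulin gene Tuba8 (2.89 ± 0.40) and Eif4ebp3 (2.96 ± 0.43), whose product binds the cap-binding factor eIF4E, were also among the 10 highest. The kinetochore gene Spc24 (2.62 ± 0.36) and 4930480G23Rik (2.68 ± 0.26) completed these 10. The ranking was among the 106 buffered higher genes eligible for naming.

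Spink3 and 9030619P08Rik had large positive interactions but were not buffered by the rule. Spink3, a trypsin inhibitor best known from the pancreas, was at 83.4, 188, 117 and 102 RPKM in the triple null and 0.65, 0.473, 1.07 and 0.602 in its controls. In Cre alfp it was at 0.878, 1.26, 3.6 and 0.718 and in lox at 0.478, 1.11 and 0. The triple null stood far above all others and the rest overlapped; the interval with FoxA3, -0.01 to 1.45, reached past 1 (interaction 5.41 ± 0.47, limma adjusted p = 4.47e-06).

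For 9030619P08Rik the levels were 321, 376, 389 and 379 RPKM in the triple null, 1.49, 4.02, 4.83 and 4.96 in its controls, 3.92, 2.02, 1.89 and 2.52 in Cre alfp, and 6.29, 7.3 and 4.59 in lox. Cre alfp lay below lox without overlap, by -0.99 (limma adjusted p = 0.048), just short of the difference of 1 that a call needed. It was called, and opposite to the rise without FoxA3, after quantile normalization, with array weights and without Cre alfp replicate 1. Its interaction of 7.32 ± 0.37 (limma adjusted p = 1.13e-08) was thus made of a rise by 6.33 without FoxA3 and a difference of the other sign with it.

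Hnf4a, which encodes another transcription factor of liver, was not called in any of the 3 contrasts, at 116 to 195 RPKM in the triple null and 117 to 205 in its controls.

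**Figure D2:**
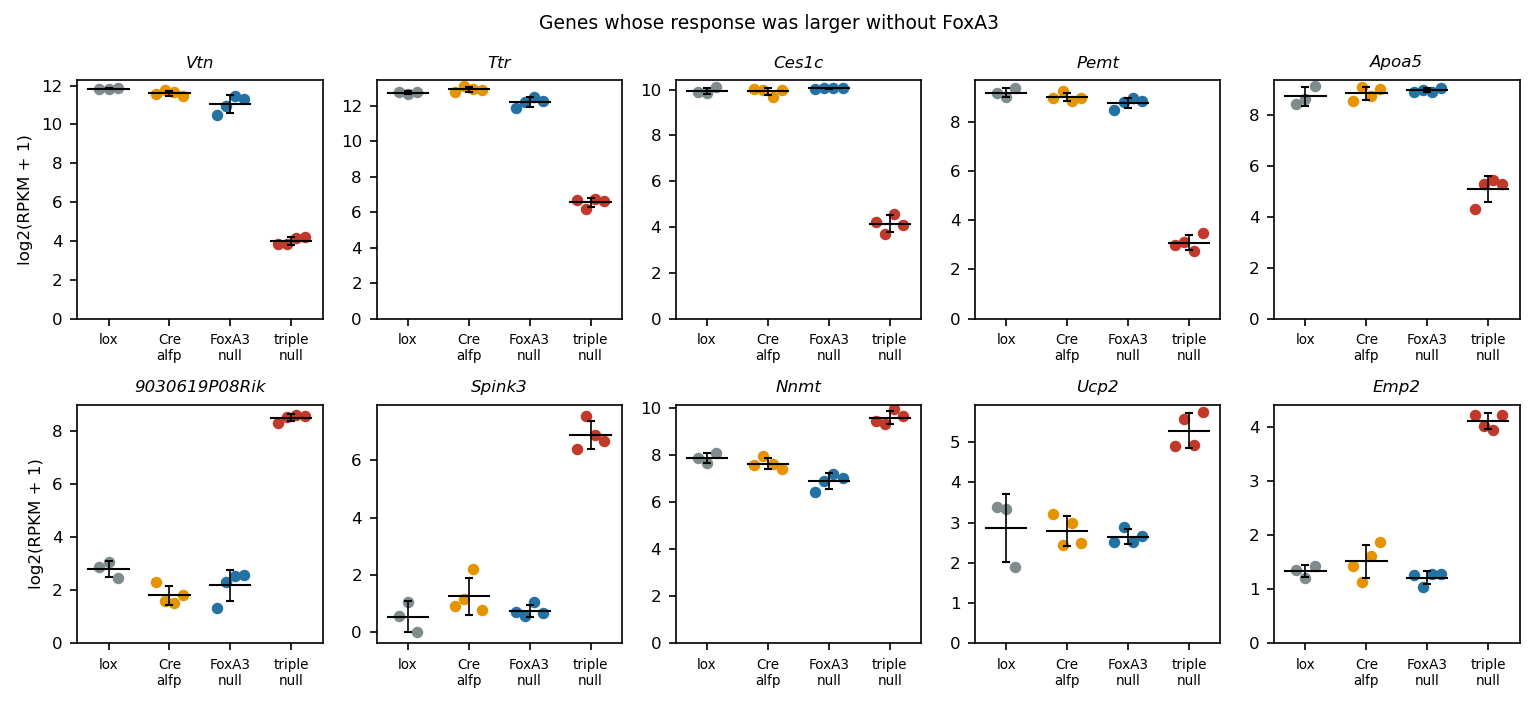
Levels of 10 genes whose response was larger without FoxA3, as log2(RPKM + 1), in 3 lox, 4 Cre alfp, 4 FoxA3 null and 4 triple null libraries, 1 point per library, with the mean of the log2 values as a bar and the SD as whiskers. The triple null points lie below all others for Vtn, Ttr, Ces1c, Pemt and Apoa5 and above all others for 9030619P08Rik, Spink3, Nnmt, Ucp2 and Emp2.

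The plasma proteins that hepatocytes make were examined by list. Of 22 carrier proteins, 10 fell and 1 rose without FoxA3, and 1 fell with it, with 9 lower and 1 higher interactions (medians -0.87, -0.17 and -0.86). The single rise and the single higher interaction were each lost in 5 of the 15 fits that left out 1 library, and the latter also without the 3 libraries of low Dbp. Transferrin (Trf), the iron carrier, fell by 2.34 without FoxA3, from 6496 ± 853 to 1279 ± 105 RPKM (n = 4 and 4), and was -0.32 with it. Albumin (Alb) fell by 1.20 without FoxA3, from 28111 ± 4827 to 12268 ± 2345 RPKM, and was -0.29 with it, with an interaction of -0.91 that missed the size of a call. The heme carrier hemopexin (Hpx) fell in both arms (-2.30 and -1.48), and its call with FoxA3 was lost without the 3 libraries of low Dbp. Of the 22 carriers 7 were buffered, and all of these were lower.

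Of 20 coagulation factors and anticoagulants, 12 fell and none rose without FoxA3, 2 fell with it, and 8 had a lower interaction (medians -1.14, -0.13 and -0.93). Serpind1, heparin cofactor II, was at 22.5 ± 3.75 RPKM in the triple null, 221 ± 36.3 in its controls, 133 ± 4.99 in Cre alfp and 135 ± 8.32 in lox (interaction -3.22, limma adjusted p = 8.35e-08). Proc, the anticoagulant protein C, fell by 1.92 without FoxA3 and was -0.06 with it. Plg, the precursor of plasmin, and Serpinf2, the plasmin inhibitor, differed by -2.80 and -2.61 without FoxA3. F11, coagulation factor XI, fell in both arms (-4.11 without FoxA3 and -1.32 with it), and its call with FoxA3 was lost without the 3 libraries of low Dbp. Hgfac, the activator of hepatocyte growth factor, was the list's exception: its call was with FoxA3 alone (-1.04), its difference without FoxA3 was -0.81, and its interaction of 0.23 was not called. That call of Hgfac was lost without lox replicate 3.

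Among 25 complement components, 9 fell without FoxA3 and 3 with it, 7 interactions were lower, and none rose (medians -0.48, -0.28 and -0.52). C8b, a part of the membrane attack complex, went from 148 ± 15 to 2.13 ± 0.127 RPKM without FoxA3 and from 209 ± 42.7 to 93.5 ± 27.8 with it. The interaction of C8b was -4.39 (limma adjusted p = 1.92e-07); its difference with FoxA3 was -1.18 and -0.97 without Cre alfp replicate 1, where it was no longer called. The complement factors Hc and C6 also fell in both arms, with differences of -2.42 and -1.90 for Hc and -3.33 and -1.80 for C6. C4bp, an inhibitor of complement, and Mbl2, a mannose-binding lectin, fell without FoxA3, and their differences with FoxA3 were -0.57 and -0.39.

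Apolipoproteins moved both ways. Of 18 genes of lipoprotein assembly, 6 fell and 3 rose without FoxA3, 1 rose with it, and 5 interactions were lower and 3 higher (medians -0.13, 0.01 and -0.15), with 1 higher without Cre alfp replicate 4. Apoa1, the main protein of high-density lipoprotein, went from 7214 ± 1580.2 to 189 ± 23 RPKM without FoxA3 and from 9145 ± 722 to 5073 ± 1468 with it, a difference of -0.90 that missed the size of a call. Apof, Apoh and Lcat, which esterifies cholesterol on lipoproteins, fell without FoxA3 (-3.69, -1.77 and -1.40), and each was buffered. Apoc2, the activator of lipoprotein lipase, rose from 802 ± 102 to 6158 ± 689.7 RPKM without FoxA3 and differed by 0.81 with it (interaction 2.13, limma adjusted p = 2.54e-05). Apoc3, an inhibitor of triglyceride clearance, rose by 1.74 without FoxA3, and Apoa4 rose in both arms, by 3.24 and 2.90.

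Of 24 acute phase proteins, which the liver secretes in inflammation, 11 rose and 5 fell without FoxA3, 2 rose and 4 fell with it, and 9 interactions were higher and 1 lower (medians 0.86, -0.55 and 1.10). Lcn2, an iron-siderophore binding protein, was at 619, 713, 1034 and 601 RPKM in the triple null and at most 92.8 in the other libraries. Its interaction was 4.47 ± 0.65 (limma adjusted p = 0.000433). Saa1, serum amyloid A, was at 1326, 1870.2, 6248 and 2391 RPKM in the triple null and 61.8 to 491 elsewhere. Its interaction was not called without the 3 libraries of low Dbp, a fit that leaves lox with a single library. In that fit the list's medians were -0.56 with FoxA3 and 0.88 for the interaction, against -0.55 and 1.10 in the full fit. Serpina3n went the other way, from 144 ± 57.7 to 3.3 ± 1.24 RPKM without FoxA3 and from 113 ± 12.3 to 35.5 ± 8.87 with it (interaction -3.35), where its call with FoxA3 was lost without the libraries of low Dbp. Summed levels of 13 neutrophil and monocyte markers, of which S100a8 and S100a9 were the 2 tested, were 9.9 to 113 RPKM in the triple null and at most 4.16 in the other libraries, and 10 of the 13 stayed under 1 RPKM in all libraries, 1 of them at 0. Their part in the acute phase values was not tested.

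Genes of bile acid and amino acid metabolism changed in both directions without FoxA3. Of 25 bile acid genes, 6 fell and 2 rose without FoxA3, 1 fell with it, and 5 interactions were lower and 1 higher (medians -0.31, 0.07 and -0.47). When 1 library was left out, 1 to 3 rose without FoxA3 and 0 to 2 fell with it. Cyp8b1, the sterol 12-alpha-hydroxylase that sets the share of cholic acid, went from 55.6 ± 6.03 to 0.346 ± 0.137 RPKM without FoxA3 and from 76.2 ± 43.1 to 32.5 ± 21.5 with it (interaction -4.16, limma adjusted p = 0.000282). Abcc3, an export pump, and Akr1c6, an aldo-keto reductase, had interactions of -2.03 and -2.72, and Akr1d1, a reductase of bile acid synthesis, rose by 1.85 without FoxA3. Of 20 genes of the urea cycle and amino acid breakdown, 4 rose and 3 fell without FoxA3 and 1 fell with it, with 4 higher and 2 lower interactions (medians 0.03, 0.05 and -0.03). Without the 3 libraries of low Dbp 2 interactions were higher and 1 lower, and the fall with FoxA3 was lost in 4 of the 15 fits that left out 1 library and after quantile normalization. Hpd, of tyrosine breakdown, rose by 1.61 without FoxA3, from 2203 ± 545 to 6619 ± 423 RPKM, and differed by 0.49 with it.

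**Figure D3:**
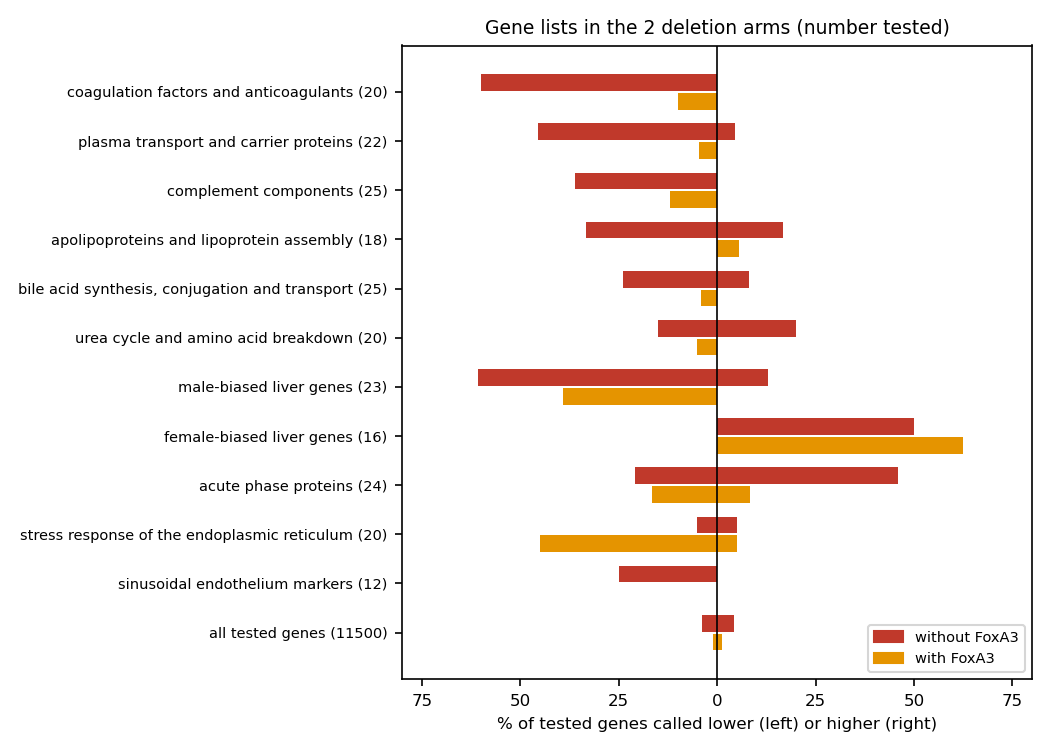
Percent of tested genes called higher (right of 0) and lower (left of 0) after FoxA1/A2 deletion without and with FoxA3, for 11 gene lists and for all tested genes. Without FoxA3, 10 of 22 carriers, 12 of 20 coagulation factors and 9 of 25 complement components were called lower, while 8 of 16 tested female-biased genes were called higher without FoxA3 and 10 with it.

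Some genes changed after the loss of FoxA1 and FoxA2 both with and without FoxA3. In the same direction there were 138, or 1.2% of tested genes, with 78 higher and 60 lower. The interaction was not called for 113 of them; it was larger without FoxA3 in 22 and larger with FoxA3 in 3. All called in both arms, 144 with either sign, were 15.4% of the genes called without FoxA3 and 52.6% of those called with it. The genes lower in both arms had median differences of -2.32 without and -1.55 with FoxA3, and the genes higher in both 1.83 and 1.72.

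Hsd3b5 was at 136, 130.3, 183 and 122 RPKM in the FoxA3 null controls and 1.08, 1.05, 0.982 and 1.72 after deletion, and at 96.4, 121 and 127 in lox and 0.0944, 3.62, 0.703 and 0.552 in Cre alfp. Both deleted groups lay below both control groups, and they overlapped with each other. The interaction of Hsd3b5, -0.11 ± 0.48, had an interval of -1.12 to 0.91. Selenbp2 also fell in both arms, but its controls differed: FoxA3 null held 10.4, 9.49, 20.7 and 9.83 RPKM and lox 484, 617 and 160.1. Gsta2, a glutathione transferase, fell in both arms (-2.60 and -2.86).

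The major urinary proteins are secreted pheromone carriers whose genes are nearly identical, so reads can be shared among them. Of 20 tested, 6 rose and 3 fell without FoxA3 and 7 rose and 3 fell with it, so that 5 rose and 3 fell in both arms; 2 interactions were lower (medians 0.12, 0.21 and -0.11). The lower interactions numbered 1 to 3 when 1 library was left out and 1 without the 3 libraries of low Dbp. With FoxA3, 6 fell in the fit without Cre alfp replicate 4, and 4 rose and 2 fell in that without the libraries of low Dbp. Mup21 was at 162 to 347 RPKM in FoxA3 null controls, 1.92 to 4.26 in triple null libraries, 279 to 539 in lox and 5.39, 11.1, 6.76 and 32.5 in Cre alfp. It fell in both arms (-5.93 and -5.13). Mup20, known as darcin, fell in both arms (-4.96 and -3.53), but Cre alfp replicate 4 held 897 RPKM against 79.3 to 130.3 in the others, close to the 991 of lox replicate 3. The Mup20 call with FoxA3 was lost without lox replicate 1 (-3.41) or lox replicate 2 (-3.12). Mup18 rose in both arms, by 4.07 and 3.53.

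Of the genes that rose in both arms, Hamp2, a gene of the hepcidin family, was at 3477, 1849, 1889 and 2209 RPKM in the triple null and 2969.7, 2224, 2041 and 897 in Cre alfp, against 49.5, 73, 114 and 20.8 in FoxA3 null and 97.8, 66.9 and 47.8 in lox. Deleted and control groups did not overlap in either arm. The interaction of 0.60 ± 0.68 was not called (limma adjusted p = 0.587). Scd2, a stearoyl-CoA desaturase mainly known outside adult liver, was at 16.2 to 32.5 RPKM in the triple null and 11.4 to 22.6 in Cre alfp, and at most 0.514 in either control. Scd2 rose by 4.19 and 4.03. It passed the filter on low values through the deleted groups alone, so a fall could not have been called.

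Sult1e1, the estrogen sulfotransferase, rose in both arms but far more without FoxA3. It was at 1411, 1007, 1289 and 786 RPKM in the triple null and 28.2, 18.6, 6.51 and 12.1 in Cre alfp, against 2.46, 3.49, 6.37 and 4.84 in FoxA3 null and 0.163, 0.102 and 0.156 in lox. The 4 groups did not overlap, and the order from low to high was lox, FoxA3 null, Cre alfp and triple null. The rises were 7.75 and 3.76, with an interaction of 4.00 ± 0.51 (limma adjusted p = 0.000149). Cyp2c69, a cytochrome P450, rose by 3.40 and 3.05, and Krt23, a keratin, by 3.76 and 3.03.

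Sex-biased liver genes, which in mice follow the pattern of growth hormone secretion, were changed in both arms. All libraries carried the low Xist of male cells. Of 23 male-biased genes, 14 fell and 3 rose without FoxA3 and 9 fell with it, with 8 lower in both arms (medians -1.49 and -0.84). The interaction was called lower in 6 and higher in 1, with a median of -0.30; the higher ones numbered 0 to 4 when 1 library was left out and none after median scaling or quantile normalization. Of 26 female-biased genes 10 stayed under 1 RPKM in all libraries and 16 were tested, of which 8 rose without FoxA3 and 10 with it, 6 in both arms, with 3 higher and 2 lower interactions (4 lower without Cre alfp replicate 2). In 7 of the 16 every control library was under 1 RPKM, so they passed the filter only through a deleted group, where a fall could not have been called. Slc22a26, a transporter of the organic anion family, rose from 0.0576 ± 0.03 to 6.39 ± 2.68 RPKM without FoxA3 and from 0.144 ± 0.158 (n = 3) to 12.8 ± 6.73 with it. Cyp17a1, a steroid hydroxylase, rose by 4.43 without FoxA3, from 4.93 ± 2.8 to 118 ± 28 RPKM, and its difference with FoxA3 was 1.35 (interaction 3.07, limma adjusted p = 0.00429). Leaving out the 3 libraries of low Dbp leaves lox with a single library. The medians with FoxA3 were then -1.09 for male-biased and 2.59 for female-biased genes, against -0.84 and 2.50 in the full fit.

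**Figure D4:**
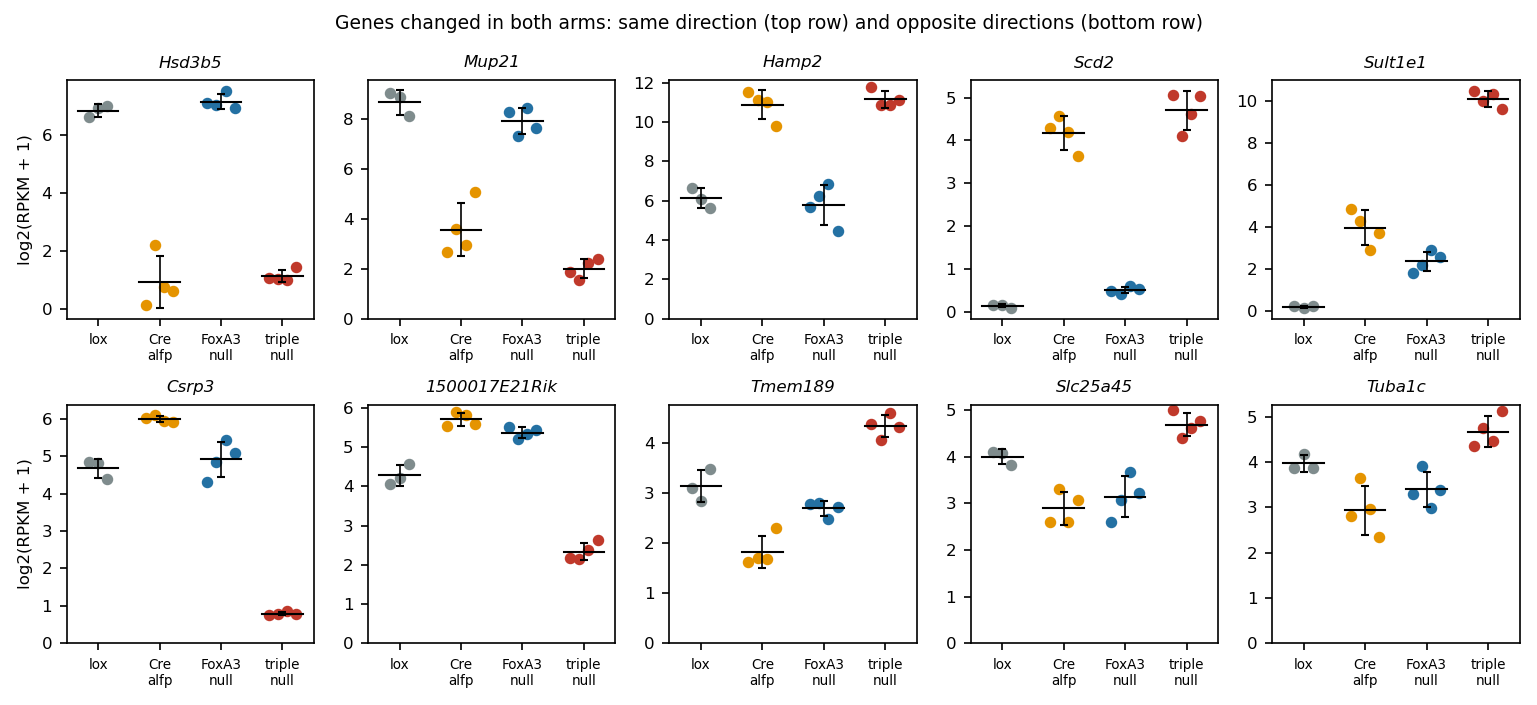
Levels of 5 genes called in both arms in the same direction (top) and 5 called in opposite directions (bottom), as log2(RPKM + 1), in 3 lox, 4 Cre alfp, 4 FoxA3 null and 4 triple null libraries, 1 point per library, with the mean of the log2 values as a bar and the SD as whiskers. Both deleted groups lie together for Hsd3b5 and Hamp2, while for Csrp3 the triple null lies lowest and Cre alfp highest.

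Opposite changes were rare, with 6 genes. There were 17 with a pseudocount of 0.1 or with array weights, and 3 with a pseudocount of 5. When 1 library was left out there were 4 to 11. Csrp3, a LIM protein known from striated muscle, was at 18.8, 28, 42.2 and 32.9 RPKM in FoxA3 null libraries, 0.7, 0.708, 0.807 and 0.721 in triple null libraries, 27.6, 27 and 20 in lox and 63.5, 68, 60.6 and 59.9 in Cre alfp. The control groups overlapped, with the triple null below and Cre alfp above all of them. It fell by 4.13 without FoxA3 and rose by 1.32 with it (limma adjusted p = 9.48e-10 and 0.00123).

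The levels of 1500017E21Rik were 3.43 to 5.17 RPKM in the triple null, 35.8 to 44.4 in its controls, 45.6 to 58.5 in Cre alfp and 15.6 to 22.9 in lox. It fell by 3.04 and rose by 1.42, with no overlap between any groups. Tmem189, which encodes the desaturase that makes plasmalogens, was at 15.6 to 23.4 RPKM in the triple null, 4.55 to 6 in its controls, 2.08, 2.24, 2.21 and 3.9 in Cre alfp and 6.14 to 10.1 in lox. It rose by 1.65 without FoxA3 and fell by 1.31 with it.

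The calls of the other 3 opposite genes did not hold when single libraries were left out. Slc25a45, a mitochondrial carrier gene, rose by 1.55 without FoxA3 and was -1.11 with it, a call lost without lox replicate 1 (-1.06) or lox replicate 2 (-1.07). Slc24a6, a cation exchanger gene, was at 11.6, 12.8, 20.3 and 11.6 RPKM in the triple null against 25.7, 28.9, 35.6 and 24.7 in its controls, which just reached the size of a call, and differed by 1.09 with FoxA3. Its call without FoxA3 was lost without FoxA3 null replicate 2 (-0.99) or 3 (-0.90) or without triple null replicate 1 (-0.93), 2 (-0.97) or 4 (-0.93), and that with FoxA3 without lox replicate 1 (0.93). The tubulin gene Tuba1c was 1.27 without and -1.03 with FoxA3 (limma adjusted p = 0.0469), and its call with FoxA3 was lost in 11 of the 15 fits that left out 1 library, where the difference ran from -1.08 to -0.83.

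Genes that changed with FoxA3 only numbered 41 (22 lower, 19 higher) when the 95% interval of the difference without FoxA3 had to lie inside -1 to 1. The count ran from 23 without lox replicate 1 to 54 without lox replicate 3 or Cre alfp replicate 4. In the 22 lower genes the median difference was -1.67 with FoxA3, and FoxA3 null controls already lay below lox by a median of -1.24. In 13 of the 22 the lox libraries lay apart from all others (6.25% of tested genes), and in 4 the Cre alfp libraries did (3.28%). Among the 19 higher genes, Cre alfp lay apart in 12 and lox in 6. The choice used the difference between lox and Cre alfp, so these counts only describe which of the pair stood apart.

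Asns, the asparagine synthetase, was at 8.96, 8.71 and 11 RPKM in lox and 0.0819, 0.297, 0.0604 and 0.381 in Cre alfp, but also at 0.114, 0.28, 0.461 and 0.523 in FoxA3 null and 0.203, 0.75, 0.24 and 0.384 in the triple null. Lox alone was high, and the other groups overlapped. The difference in Asns was -3.13 with FoxA3 and 0.05 without it (interaction 3.18 ± 0.22, limma adjusted p = 5.06e-07). Asns passed the filter on low values through lox alone, so a difference was built into its being tested. Enho, the precursor of the secreted peptide adropin, was likewise high in lox alone. It was at 33.7, 19.5 and 10.2 RPKM in lox and at most 0.582 in any other library (interaction 3.78 ± 0.36). Enho also passed the filter through lox alone, with the same limit. Gm20419 was at 6.74 to 8.86 RPKM in lox, was listed at 0 in all Cre alfp libraries, and reached at most 1.05 in the others (2.66 ± 0.25).

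In the higher direction, Cyp2b13, a female-biased cytochrome P450, reached 15.3, 2.83, 5.66 and 12.7 RPKM in Cre alfp and at most 0.253 in the other 11 libraries. It passed the filter on low values through Cre alfp alone, as did Gh, so a difference was built into its being tested. Gh, growth hormone, reached 5.29, 6.37, 3.26 and 8.29 RPKM in Cre alfp and was listed at 0 in all other libraries. The pseudogene Mup-ps13 lay at 61.7 to 86.4 RPKM in Cre alfp and at most 38.4 elsewhere, with a rise by 1.91 that was not called without the 3 libraries of low Dbp. Zcchc11, which encodes an enzyme that adds uridines to RNA ends, was higher by 1.22; its call with FoxA3 was lost without lox replicate 1 (1.09) or lox replicate 2 (1.08).

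Chaperones and other genes of the endoplasmic reticulum stress response held 6 genes lower with FoxA3 only, the most of the 33 lists. Of 20 genes, 9 fell and 1 rose with FoxA3, 1 fell and 1 rose without it, and 8 interactions were higher (medians -0.74, 0.21 and 0.98). The fall without FoxA3 was lost in 3 of the 15 fits that left out 1 library. Creld2, a stress-induced protein of the endoplasmic reticulum, was at 196, 138 and 36.7 RPKM in lox and 8.99, 14, 18 and 11.8 in Cre alfp, 17.2 to 29.2 in FoxA3 null and 25.1 to 56.1 in the triple null. Sdf2l1, of the same compartment, was at 107, 123 and 35.4 RPKM in lox and 9.96 to 30.1 in all others. Manf, a secreted stress protein, fell by 1.68 with FoxA3 (interaction 2.36, limma adjusted p = 0.000213). Lox replicates 1 and 2 were the high ones for Creld2 and Sdf2l1, and lox replicate 3 lay well below them.

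The lox group was split in its clock genes. Dbp, a clock output gene that swings over the day, was at 1.7, 5.91 and 175 RPKM in lox and 203, 2.88, 63.7 and 342 in Cre alfp, and between 50.6 and 253 in the FoxA3 null and triple null libraries. Arntl, a core clock gene of opposite phase, was at 8.59, 5.45 and 0.329 RPKM in lox and 1.29, 8.14, 3.81 and 0.175 in Cre alfp. Of 17 clock genes, none was called without FoxA3 or for the interaction, and 1 was called with FoxA3, Nr1d1, whose call was lost in 11 of the 15 fits that left out 1 library. A fit on the 12 libraries with Dbp of at least 50 RPKM leaves lox with a single library. That library is assumed to vary like the other groups. There the 19 stress genes tested had medians of -0.47 with FoxA3 and 0.49 for the interaction. The 20 of the full fit had -0.74 and 0.98. The calls with FoxA3 of Hpx, F11, C6, C8b, Serpina3n, Sult1a1, Mup20, Mup-ps13 and Zcchc11 were lost without the libraries of low Dbp. Those of Creld2, Sdf2l1, Manf, Slc25a45, Slc24a6, Tuba1c, Spp1 and Hbb-b1 were lost as well. The differences there were -1.44 for Hpx, -1.83 for C6, -2.28 for Mup20, -1.48 for Creld2, -1.22 for Manf and 1.79 for Hbb-b1. They were -0.73 for F11 and -0.97 for C8b. Over all fits Serpina3n, Mup-ps13 and Sdf2l1 were no weaker than -1.40, 1.72 and -1.26. A call lost in this fit thus does not show that the difference was gone. The interaction calls of C6, Apoc3, Hpd, Saa1, Ucp2, Rhbg, Sdf2l1, Mup-ps13 and Zcchc11 were lost there too. With the log2 level of Dbp minus that of Arntl in each library as a covariate, 7 of 20 stress genes were lower with FoxA3. In that covariate fit 7 of their interactions were higher. The part of the time of sampling in these values was not tested.

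**Figure D5:**
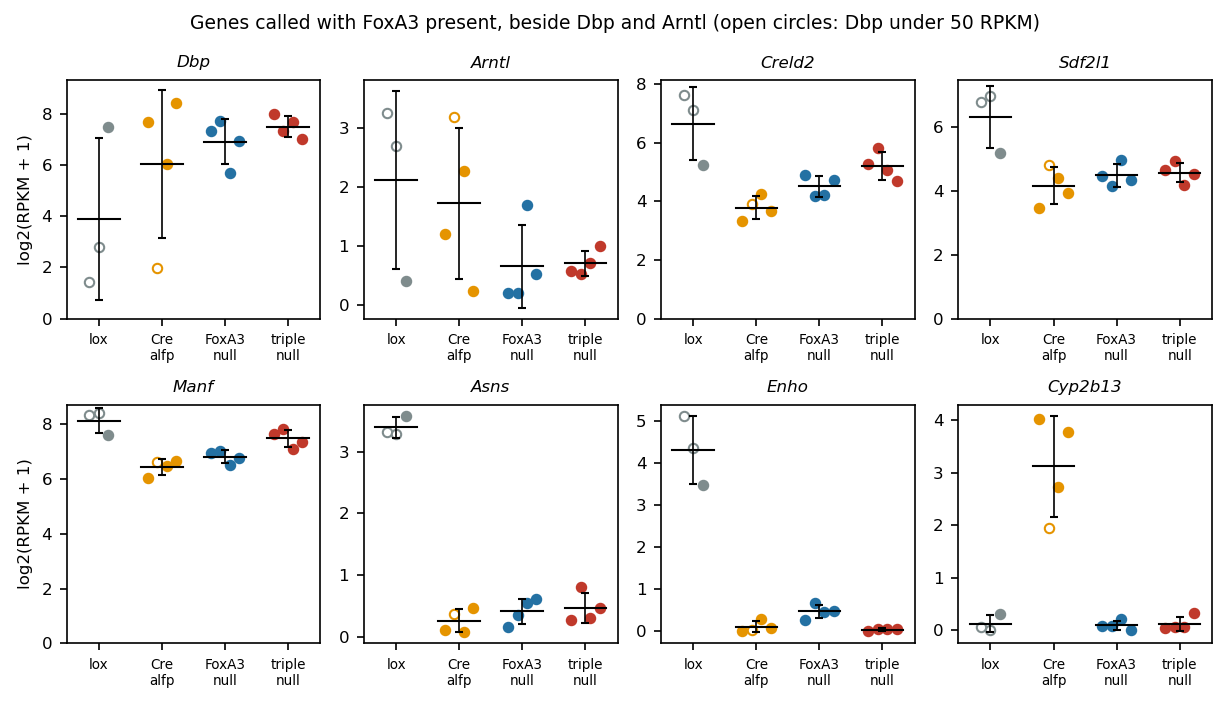
Levels of clock genes, stress genes of the endoplasmic reticulum and genes called with FoxA3 only, as log2(RPKM + 1), in 3 lox, 4 Cre alfp, 4 FoxA3 null and 4 triple null libraries, 1 point per library, with the mean of the log2 values as a bar and the SD as whiskers. Open circles mark the 3 libraries with Dbp under 50 RPKM, lox replicates 1 and 2 and Cre alfp replicate 2, and the 2 lox ones are the highest for Creld2 and Sdf2l1.

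Summed markers of sinusoidal endothelium were lower in every triple null library than in any other library. The summed level of 14 sinusoidal endothelium markers ran from 13.9 to 27.3 RPKM in the triple null, 41.5 to 65.3 in its controls, 30.2 to 108 in Cre alfp and 52 to 85.6 in lox. None of the 14 was at 0 in all libraries. Of 12 tested, 3 fell without FoxA3 and none was called with it, with 4 lower interactions (medians -0.90, 0.25 and -1.17). The falls numbered 2 to 5 when 1 library was left out and 5 after median scaling. The lower interactions numbered 2, 1 and 1 without lox replicate 1, 2 and 3, 1 after quantile normalization and 7 with the clock covariate described above. Leaving out the 3 libraries of low Dbp leaves lox with a single library. The median interaction of the 12 was then -1.33, against -1.17 in the full fit. Stellate cell and fibroblast markers summed to 15.7 to 62.6 RPKM in the triple null and 33.3 to 152 in the other groups. None of these 15 was at 0 in all libraries, and 8 stayed under 1 RPKM. Of the 6 tested, 2 fell without FoxA3, and 4 without triple null replicate 2. The interaction was lower in 2 of the 6 (median -1.09), and in 0 to 3 when 1 library was left out. The 14 markers of Kupffer cells and macrophages summed to 18.5 to 58.8 RPKM in the triple null and 10.6 to 96.5 in the other groups. None was at 0 in all, and of 11 tested none was called in either arm (medians -0.07 without and 0.75 with FoxA3). The interaction was lower in 1 of the 11 (median -0.78), and in 0 to 1 when 1 library was left out. Of 4 tested cholangiocyte markers none was called without FoxA3 and 1, Spp1, was lower with it, a call lost in 12 of the 15 fits that left out 1 library. The part of these cells in the interaction genes was not tested.

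Libraries outside the rule gave a further view of the classes. In 6 liver libraries, 4 labelled HNF4a null and 2 labelled HNF4a control, 10774 of the tested genes could be compared, of which 7.9% were higher and 6.6% lower in the libraries labelled null. Hnf4a RNA itself was higher in the libraries labelled null by 2.09. A level per gene does not show whether that RNA was intact, so it does not test the label. A direction in these libraries is that of the labels only. Of 159 buffered lower genes, 53 were lower (33.3%) and 15 higher (9.43%), and of 58 genes lower in both arms, 29 were lower (50%) and 7 higher (12.1%). Buffered higher genes were higher in 19 of 116 (16.4%) and lower in 16 (13.8%), and genes higher in both arms were higher in 22 of 62 (35.5%) and lower in 16 (25.8%). Vtn (-2.76) and Ttr (-3.71) were lower, Pemt and Apoa5 were not called (0.14 and 0.08), and Ces1c and Ambp were higher by 1.40 and 1.49. With each library scaled to a common median, 3.68% of all genes were higher and 8.77% lower, and 39% of buffered lower genes were lower and 3.77% higher, as were 55.2% and 8.62% of genes lower in both arms. On that scale more of the other classes were lower than higher: 18.1% against 9.48% of buffered higher genes and 27.4% against 25.8% of genes higher in both arms, the reverse of the order as deposited.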

How the data were processed

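RNA sequencing of mouse hepatocytes gave RPKM values for 33773 gene symbols, deposited by the authors in a single matrix. Per the submitters' processing notes SAMtools, Cufflinks 2.2.1, DESeq2 and the build mm9 were used, in roles those notes do not give; the aligner and annotation are not given in the sources used here. Of the matrix's columns, 15 hepatocyte and 6 liver columns were used, and 9 that matched no sample were not. The columns of FoxA1/A2 lox were matched to their group by name. The authors' deposited table of triple null against FoxA3 null holds log2 fold changes and adjusted p-values, per the file headers, with no test stated.

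Here log2(RPKM + 1) was fitted with limma 3.58.1 (R 4.3.3; lmFit, eBayes with trend) on all 15 libraries with no covariate, for every gene that reached 1 RPKM in 3 or more libraries, with Benjamini-Hochberg adjustment over all tested genes. Tables were handled in Python 3.11.15 with pandas 2.3.3 and numpy 2.4.6. On simulated data the interaction test recovered 92% to 98% of genes changed by 2 or 3 on the log2 scale, over 11500 genes, with 6 false calls. The simulated spread was drawn independently for each library, and the changed genes were of intermediate mean level. These figures thus do not cover spread that libraries have in common, such as that of the clock genes. Absolute depth is unknown, so no counting interval is given; relative depth came from the steps between low values. Of the values above 0, 2.9% lay under 1e-06, which no whole read could give.

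The genes, classes and lists were chosen with earlier results of these data known. Named genes were the 10 lowest and 10 highest buffered genes by interaction without overlap between the groups, 6 each way called in both arms, all opposite genes, 4 each way with FoxA3 only, 3 each way called in neither arm, the Foxa genes, Hnf4a, Vtn, Spink3 and 9030619P08Rik, and up to 4 members of each list, with a mean of at least 5 RPKM in the higher group where the rule ranks genes. Other genes of the lists were named after their values were seen. Replicate numbers did not pair the samples. Alternatives were pseudocounts, filters, scalings, weights, sizes of difference, fits per arm, a replicate block and leaving out each library; the clock fits were chosen after seeing the data. The HNF4a libraries entered a separate fit of the same kind. Promoters came from RefSeq, and the files of other assays were not analysed here. Some genes that the rule selects are left unreported. Genes without a promoter entry were Ttr, 9030619P08Rik, Serpina10 and Scd2.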

Additional observations from a re-analysis of the deposited data

Results flagged for a closer look

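The effect of the deletion differed between the arms, by limma's interaction test, in 784 genes. Those of them that were selected by class, with Spink3 and 9030619P08Rik, had these interactions. Negative interactions were found in Vtn (-6.81), Cyp2c50 (-6.01), Ces1c (-5.89), Ttr (-5.85), Ugt2b1 (-5.69), Pemt (-5.52), Csrp3 (-5.45), Serpina10 (-4.65), 1500017E21Rik (-4.47), Itih2 (-4.38), Apoa5 (-4.01), Ambp (-3.85), Cyp2b13 (-2.97), Gh (-2.71), Slc24a6 (-2.09), Mup-ps13 (-1.79) and Zcchc11 (-1.66). Positive interactions were found in 9030619P08Rik (7.32), Spink3 (5.41), Sult1e1 (4.00), Enho (3.78), Hpca (3.24), S100g (3.20), Asns (3.18), Eif4ebp3 (2.96), Tmem189 (2.96), Nnmt (2.94), Tuba8 (2.89), Rhbg (2.80), Ucp2 (2.72), Emp2 (2.71), 4930480G23Rik (2.68), Gm20419 (2.66), Slc25a45 (2.65), Spc24 (2.62), Tuba1c (2.30) and Sdf2l1 (2.24). Those of Cyp2b13, Gh, Mup-ps13 and Zcchc11 came with a rise with FoxA3, and those of Asns, Enho, Gm20419 and Sdf2l1 with a fall with FoxA3.

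In 11 of 141 groups of 4 libraries, 1 library lay far from the other members by Dixon's test; chance alone gives about 1 in 20 groups. In the triple null these were Rhbg (43.7 RPKM), Krt23 (61.4) and Slc24a6 (20.3) in replicate 3, Hsd3b5 (1.72) and Cyp2b13 (0.253) in replicate 4, and Enho (listed at 0) in replicate 1. In FoxA3 null they were Selenbp2 (20.7) and Foxa2 (20.6) in replicate 3 and Emp2 (1.05) in replicate 2. In Cre alfp they were Mup20 (897) and Tmem189 (3.9) in replicate 4. Triple null replicate 3 was the high library for 3 of these genes.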

How the results depend on the processing

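Differences under log2(RPKM + 5) are smaller by construction and gave 505 genes without FoxA3, 141 with FoxA3, 441 interactions, 192 buffered, 73 in both arms, 3 opposite and 18 with FoxA3 only. A pseudocount of 0.1 gave 17 opposite genes. With no minimum difference the counts were 3413, 628, 1658, 1114, 303, 62 and 145, and with a minimum of 2 they were 259, 67, 201, 56, 29, 0 and 8, in the same order. An interval inside -0.5 to 0.5 left 70 buffered genes and 8 with FoxA3 only. Genes with FoxA3 only numbered 27 with no filter, 26 at a minimum of 5 RPKM and 62 with array weights, which gave 17 opposite genes. A fit on the arm with FoxA3 alone called 182 genes. The 12 libraries with Dbp of at least 50 RPKM gave 151 genes with FoxA3, 422 interactions (347 shared), 123 buffered (110 shared), 86 in both arms and 26 with FoxA3 only (8 shared). The cause of these shifts beyond fewer libraries or genes was not tested.

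Leaving out each library in turn gave 866 to 1034 genes without FoxA3, 177 to 284 with FoxA3, 634 to 885 interactions, 247 to 373 buffered, 100 to 147 in both arms, 4 to 11 opposite and 23 to 54 with FoxA3 only. The counts with FoxA3 were lowest without lox replicate 1 (177 and 23), and opposite genes highest without lox replicate 3 (11). Same-numbered libraries correlated at -0.36 to 0.17 in their deviations, so the numbers do not pair the samples; with the replicate block there were 919 genes without FoxA3, 229 with FoxA3, 772 interactions, 292 buffered, 124 in both arms, 8 opposite and 38 with FoxA3 only. The liver libraries labelled HNF4a null gave 1067 higher and 740 lower genes as deposited, and 510 and 983 after median scaling. Over up to 26 alternatives each, which leave out the changed sizes of difference and interval, 187 of 284 results for named genes kept their side of the threshold, 14 gained a call in at least 1 and lost none, and 83 lost a call in at least 1. No call changed sign; the range of 8 uncalled interactions crossed 0. Lower interactions of endothelial markers, 4 in the full fit, ranged from 1 to 10 when 1 library was left out. Unknown depth limits genes near 1 RPKM.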

Other observations

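Cytosolic sulfotransferases, which attach sulfate to steroids, bile acids and phenols, held several responses at once. Of 8 tested, 4 rose and 1 fell without FoxA3 and 5 rose with it, with 3 higher and 3 lower interactions (medians 1.96, 1.83 and -1.02). Sult1d1 rose from 99.4 ± 8.03 to 692 ± 144 RPKM without FoxA3 and differed by 0.95 with it (interaction 1.81, limma adjusted p = 0.00068), and Sult1a1 rose in both arms, by 2.77 and 1.21. Sult1b1 fell by 1.90 without FoxA3 and was -0.01 with it. Sult3a1, a female-biased enzyme, was at 4.49 ± 0.973 RPKM in Cre alfp and at most 0.0281 ± 0.0188 in the mean of any other group. In 3 of the 8 every control library was under 1 RPKM, and without the 3 libraries of low Dbp 3 rose with FoxA3.

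Of 15 genes of glucose production and use, 4 fell without FoxA3 and 1 with it, with 2 lower interactions (medians -0.65, 0.03 and -0.38). The falls of G6pc, glucose-6-phosphatase, and Ppp1r3b, a glycogen-targeting subunit, were not called without triple null replicate 2 or 3 or without FoxA3 null replicate 4, which left 2 of the 4. Fbp1, the fructose bisphosphatase of glucose production, fell by 2.04 without FoxA3 and was 0.07 with it. Igfbp2, a binding protein of insulin-like growth factors, went from 592 ± 77.5 to 70.5 ± 27.5 RPKM without FoxA3 and from 327 ± 71.3 (n = 3) to 417 ± 84.6 with it (interaction -3.48, limma adjusted p = 3.25e-05). Alas2, the erythroid form of the first enzyme of heme synthesis, fell in both arms. It went from 38.9 ± 5.74 to 1.04 ± 0.281 RPKM without FoxA3 and from 84 ± 4.96 to 14.9 ± 7.47 with it. The globin genes Hba-a1 and Hba-a2 were higher without FoxA3, by 1.79 and 1.33. Of 5 erythroid markers tested, 3 rose and 1 fell without FoxA3, and 1 rose and 1 fell with it. Hbb-b1, another globin gene, rose in both arms. Its call with FoxA3 was lost in 5 of the 15 fits that left out 1 library. Of 20 cholesterol synthesis genes 1 was called in any contrast, Sc5d (its interaction not without the 3 libraries of low Dbp). When 1 library was left out, 1 to 2 of the 20 fell without FoxA3 and 0 to 1 with it. Of 18 cell cycle genes 3 rose without FoxA3, 1 rose with it and none had a called interaction. The cell cycle count without FoxA3 ranged from 1 to 9 over the fits that left out 1 library: Birc5 and Cdk1 were not called without triple null replicate 2 or FoxA3 null replicate 2. Ccnd1, the gene that rose with FoxA3, lost its call in 5 of these 15 fits.

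Among genes called for the interaction and in neither arm, the lowest were Gm16332 (-2.91), the small RNA gene snoU6-77 (-2.86) and Gm12247 (-2.18), and the highest Adh6-ps1 (2.61), Serpina12 (2.59) and Hspb1 (1.94). In Gm16332 Cre alfp replicates 1 to 3 held 31.3, 29.8 and 27.2 RPKM and replicate 4 held 3.53. The calls of snoU6-77 and Gm12247 were each lost in 10 of the 15 fits that left out 1 library, that of Adh6-ps1 in 9, that of Serpina12 in 3 and that of Hspb1 in 2. Of the 6, only the call of Serpina12 was kept without the 3 libraries of low Dbp.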
